A study of Danio rerio with 16 samples.

Results

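The miR-430 family was taken as every miRNA on the array whose name starts with dre-miR-430, without regard to its values. The rule found 5 of the 245 zebrafish miRNAs on the array: dre-miR-430a, dre-miR-430b, dre-miR-430c, dre-miR-430i and dre-miR-430j. The species prefix is left out below. Of these, 4 were above background and tested, and miR-430i was not above background on any of the 16 arrays. RNA came from wild-type embryos (TL strain) that were exposed, beginning 4 hours after fertilization (hpf), either to ethanol, the vehicle, or to VPA (valproic acid, an epilepsy drug and histone deacetylase inhibitor). The 4 groups were vehicle at 48 hpf, VPA at 48 hpf, vehicle at 96 hpf and VPA at 96 hpf, with 4 one-colour (Cy3) Agilent miRNA arrays each. All groups share the strain and carry no transgene or mutation in the labels, which give no VPA dose and do not say whether replicates are separate clutches. The p-values therefore measure the spread between the arrayed samples.

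MicroRNAs are short RNAs that guide silencing proteins to messenger RNAs, mostly through a seed near the 5′ end. In zebrafish, miR-430 is made in many copies from the onset of zygotic transcription and is known for speeding the removal of messenger RNAs that the egg supplied. It also represses zygotic targets, among them Nodal signals and their antagonists, and restores much of brain morphogenesis when supplied to embryos that cannot process their own miRNAs. The arrays measured miRNAs only, so removal of maternal messenger RNA was not measured here. RNA was from whole embryos, in which fewer cells of a type and less of the RNA per cell cannot be told apart. Of 16 miRNAs that mark muscle, neural tissue, liver, blood, skin and epithelium, 14 were above background on all 16 arrays and the other 2 on 14 arrays.

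The longer of the 2 probes of each member is printed, since the values of the tested members come from it and rest on how far such probes tell the members apart. Each is written 5′ to 3′ as DNA in the files' annotation, and capitals mark the stretch that differs from the miR-430a probe, or for miR-430j from the miR-430b probe.
miR-430a: ctaccccaacaaatagc
miR-430b: ctaccccaacTTGatagc
miR-430c: ctaccccaaAGAGAagc
miR-430i: ctacGccaacaaatagc
miR-430j: taccccaaTttgatagca
The miR-430i probe differs from that of miR-430a by the single substitution C5G, counted from 1 at the 5′ end of the miR-430a probe. On the same count miR-430c carries C10A, A11G, A13G and T14A. The miR-430j probe differs from that of miR-430b by C10T, counted from the 5′ end of the miR-430b probe, over 16 shared letters. The probes of miR-430b and miR-430a share 15 letters and differ in length, with 18 and 17 bases.

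Read as RNA on the other strand, the probes give the part of each miRNA that they pair with, with the same differences in capitals. These stretches show that the members end in a nearly common run and differ in the middle.
miR-430a: gcuauuuguugggguag
miR-430b: gcuauCAAguugggguag
miR-430c: gcuUCUCUuugggguag
miR-430i: gcuauuuguuggCguag
miR-430j: ugcuaucaaAuuggggua
Full mature sequences were not used here. Signal that one member's RNA gives on a close member's probe was not tested.

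In the build that annotates the array (danRer6, Zv8), probes of 4 members match 1 tandem cluster on chromosome 4, at chr4:34354028-34370318. The files write these matches from the higher to the lower coordinate, with the probe on the minus strand. The cluster spans 16.3 kb and holds 56 matches, 20 of miR-430b, 17 of miR-430c, 16 of miR-430a and 3 of miR-430i. Along rising coordinates the copies repeat in the order b, c, a, which occurs 13 times, and in 3 places miR-430i stands where miR-430a otherwise does. From one miR-430b match to the next, the distance was 612 bases at the median and ran from 576 to 1164. Outside the cluster, miR-430a matched chromosome 4 at 34481384 to 34481400 and chromosome 10 at 4619649 to 4619665, and miR-430c matched chromosome 20 at 2961554 to 2961570. Another 2 matches each of miR-430a, miR-430b and miR-430c lie on unplaced sequence, and the files give miR-430j no position. In RefSeq's annotation of the later assembly GRCz12tu, used for names only, 58 genes carry the name, 57 of them on chromosome 4. By member these are 17 of miR-430a, 19 of miR-430b, 18 of miR-430c and 3 of miR-430i on chromosome 4, and 1 of miR-430a on chromosome 10. Each value below therefore stands for all copies of a member together.

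**Figure D1:**
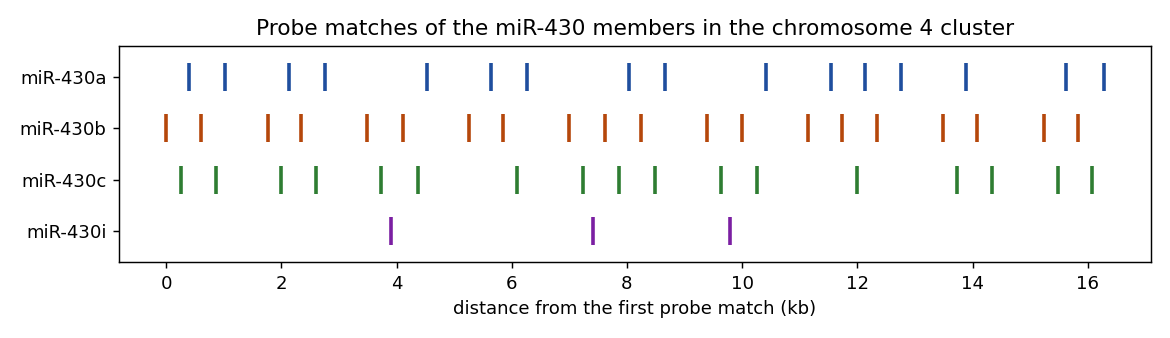
Each tick is a match of a member's probe, placed by its distance in kb from the first match of the chromosome 4 cluster, with 1 row per member. The 20 miR-430b, 17 miR-430c, 16 miR-430a and 3 miR-430i matches alternate over 16.3 kb.

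Values are log2 of the background-subtracted signal divided by the 75th percentile of its array, so 0 is the signal of a spot at that percentile. This percentile ran from 897 to 1220 in vehicle and from 507 to 2356 in VPA arrays at 48 hpf. At 96 hpf it was 1956 to 2406 in vehicle and 1249 to 6179 in VPA arrays. VPA arrays that outshone all vehicle arrays of their time, called the bright VPA arrays below, were replicate 4 at 48 hpf and replicates 3 and 4 at 96 hpf. All 48 hpf arrays lie on 1 slide and all 96 hpf arrays on another, so the effects of age and of slide cannot be told apart. Within a slide the treatments fill separate columns, and treatment cannot be told apart from column.

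The comparison of 96 with 48 hpf in vehicle embryos asked how the family changed with age. All 4 tested members fell, by 8.41-fold (miR-430c) to 13.1-fold (miR-430j), while the median of the 178 tested miRNAs moved by 0.11 on the log2 scale. On the 48 hpf vehicle arrays miR-430a, the member whose probe differs least from that of miR-430i, read 3.05, 3.08, 3.0 and 3.22 on the log2 scale, and on the 96 hpf vehicle arrays -0.22, -0.38, -0.45 and -0.25. The 2 groups lay far apart. The log2 change was -3.41 ± 0.06 (SE, n = 4 arrays a group), which is 10.7-fold (limma, adjusted p = 2.95e-16). Before scaling, the intensity of miR-430a was 10130, 10005, 7219 and 11070 at 48 hpf and 1795, 1516, 1547 and 2039 at 96 hpf. The unscaled signal thus also fell, although the 96 hpf arrays were the brighter ones.

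For miR-430b, the first miRNA of each repeat in the cluster, the 48 hpf vehicle arrays gave 3.41, 3.34, 3.29 and 3.37 and the 96 hpf vehicle arrays -0.20, -0.33, -0.29 and -0.21. The groups did not overlap, and the change of -3.61 ± 0.10 was 12.2-fold (adjusted p = 2.3e-14). miR-430c, whose probe has the longest stretch in capitals above, read 1.31, 1.23, 1.25 and 1.34 at 48 hpf and -1.68, -1.94, -1.74 and -1.79 at 96 hpf. It also parted the groups, and its fall of 8.41-fold (-3.07 ± 0.09, adjusted p = 2.88e-14) was the smallest estimate of the 4. miR-430j, which has no position in the files, read 0.93, 0.85, 0.92 and 0.95 at 48 hpf and -2.77, -2.83, -2.81 and -2.77 at 96 hpf. Its groups did not overlap, and its fall of 13.1-fold (-3.71 ± 0.13, adjusted p = 3.66e-13) was the largest fall estimated among the 178 miRNAs. The order of the members depended on the background correction. With another one (normexp) the changes were -3.44 (miR-430b), -3.25 (miR-430a), -2.94 (miR-430j) and -2.63 (miR-430c).

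**Figure D2:**
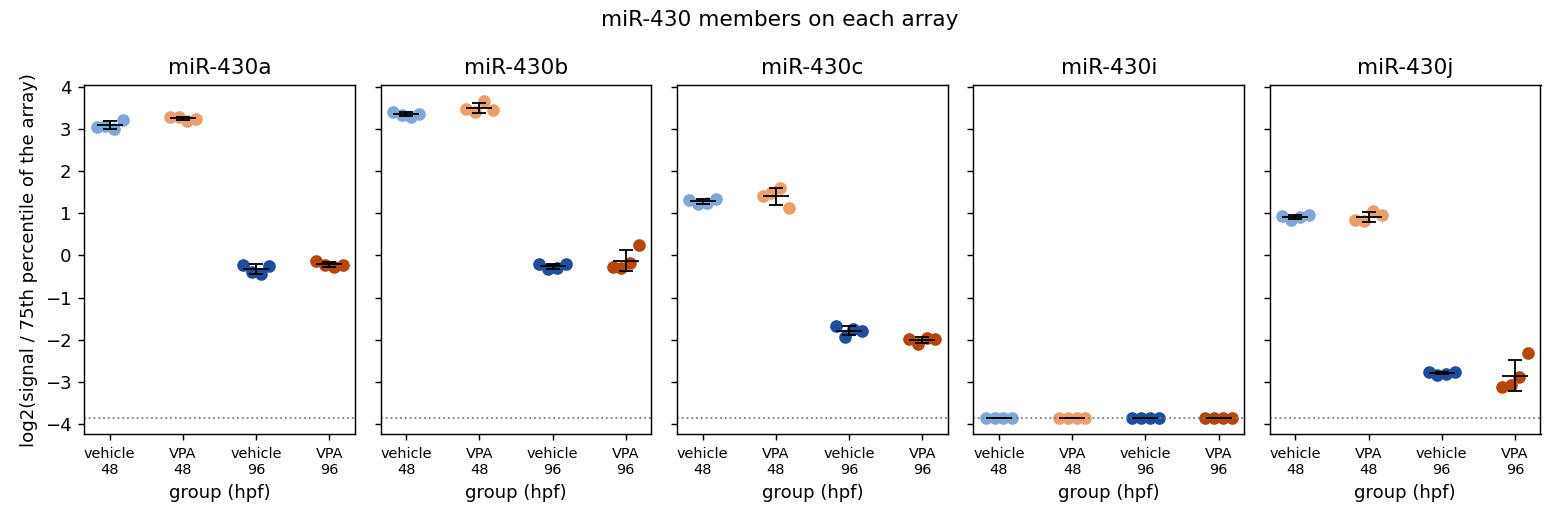
Points are the 4 arrays of each group (replicates 1 to 4 from left to right), bars the mean and SD, and the y axis is log2 of the signal over the array's 75th percentile; the dotted line is the floor of -3.87. In the 4 tested members every 96 hpf array lies below every 48 hpf array, and miR-430i lies at the floor on all 16 arrays.

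Called with a lower value were 4 of 4 tested members in vehicle embryos, where 34.3% of all tested miRNAs were called lower. Lower by at least 8-fold were 4 of 178 miRNAs (2.25%), and these were the 4 members. Next after them in vehicle embryos was miR-30a, with a log2 change of -1.42. The count at 8-fold depended on the processing. miR-430c did not reach it with normexp (-2.63), the scanner software's gene signal (-2.90) or the percentile over probes detected on all arrays (-2.96). Nor did miR-430j with normexp (-2.94), or any member without scaling. Among the 145 miRNAs above background on all 8 vehicle arrays the members also took ranks 1 to 4 by size of the fall. Without any scaling between arrays, the median log2 change of all miRNAs in vehicle embryos was 0.978, and the members' median was -3.56 relative to it. In those unscaled values 4 of the 178 miRNAs were called lower, and they were the 4 members.

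The same comparison in VPA embryos gave falls of 10.7-fold (miR-430c) to 13.6-fold (miR-430j) in the 4 tested members. miR-430a read 3.29, 3.28, 3.20 and 3.25 on the 48 hpf VPA arrays and -0.12, -0.23, -0.27 and -0.23 on the 96 hpf VPA arrays. miR-430b read 3.48, 3.41, 3.67 and 3.45 at 48 hpf, and -0.26, -0.30, -0.18 and 0.24 at 96 hpf. Both miRNAs parted the ages, by -3.47 ± 0.06 (11.1-fold, adjusted p = 2.35e-16) and -3.63 ± 0.10 (12.4-fold, adjusted p = 1.69e-14).

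With VPA, miR-430c read 1.42, 1.48, 1.61 and 1.13 at 48 hpf and -1.98, -2.11, -1.97 and -1.97 at 96 hpf. miR-430j read 0.83, 0.81, 1.05 and 0.97 at 48 hpf and -3.12, -3.08, -2.89 and -2.33 at 96 hpf. The ages did not overlap in either, with changes of -3.42 ± 0.09 (10.7-fold, adjusted p = 1.03e-14) and -3.77 ± 0.13 (13.6-fold, adjusted p = 3.69e-13). Among VPA arrays at 96 hpf, replicate 4 was the highest for miR-430b and miR-430j and was also the brightest array, with a 75th percentile of 6179. The part of brightness in these values was not tested.

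In VPA embryos 36% of all tested miRNAs were called lower with age, and 4 of 4 tested members were. Those lower by at least 8-fold were again 4 of 178 (2.25%), the same 4 members, and miR-30a followed with a log2 change of -1.56. With normexp miR-430c did not reach 8-fold here (-2.90), nor did any member without scaling. The members held ranks 1 to 4 among the 129 miRNAs above background on all 8 VPA arrays. With no scaling the median log2 change of all miRNAs was 1.47 here, and the members' median relative to it was -3.41. Again 4 of the 178 miRNAs, the members, were called lower in the unscaled values.

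**Figure D3:**
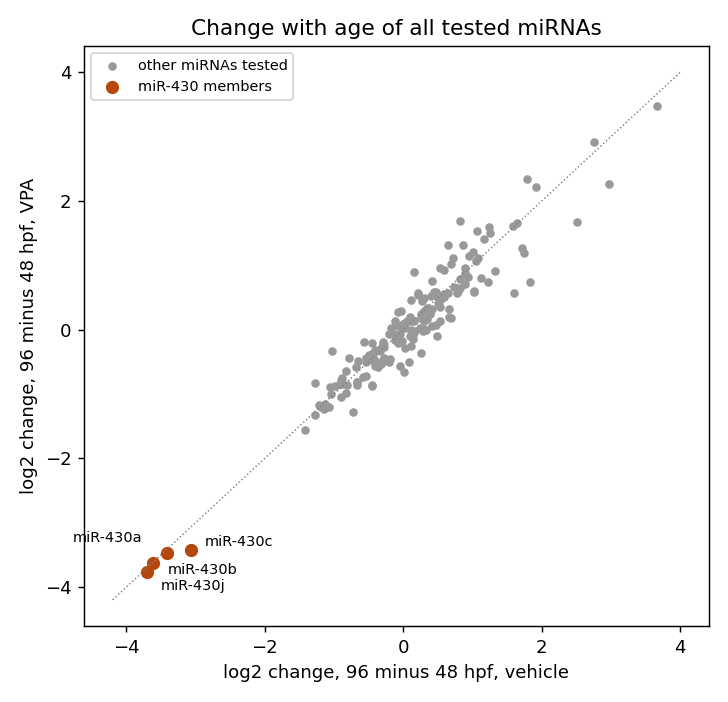
Each point is 1 of the 178 tested miRNAs, with its log2 change from 48 to 96 hpf in vehicle embryos on the x axis and in VPA embryos on the y axis; the dotted line marks equal changes. The 4 members lie between -3.07 and -3.77 on both axes, and the next fall is that of miR-30a at -1.42 and -1.56.

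The order of the group means was the same in miR-430a and miR-430b, with VPA at 48 hpf highest, then vehicle at 48 hpf, VPA at 96 hpf and vehicle at 96 hpf. The means of miR-430a were 3.26 ± 0.04 (SD, n = 4), 3.09 ± 0.10, -0.21 ± 0.06 and -0.33 ± 0.11 in that order. Those of miR-430b were 3.51 ± 0.12, 3.35 ± 0.05, -0.13 ± 0.25 and -0.26 ± 0.06. In miR-430c, VPA embryos were above vehicle at 48 hpf (1.41 ± 0.20 and 1.28 ± 0.05) and below at 96 hpf (-2.01 ± 0.07 and -1.79 ± 0.11). In miR-430j the treatments gave 0.91 ± 0.11 (VPA) and 0.91 ± 0.05 (vehicle) at 48 hpf, and -2.85 ± 0.36 and -2.79 ± 0.03 at 96 hpf. Treatments of 1 age did not differ past the threshold in any of the 4 members. Vehicle at 48 hpf and VPA at 96 hpf, neighbours in the order of miR-430a and miR-430b, were not tested against each other, and their arrays did not overlap.

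Whether the members changed by unequal amounts was read from the log2 difference of 2 members within each array, which cancels a single scaling factor per array, over 6 pairs and 4 comparisons. In vehicle embryos the distance of miR-430b from miR-430c was 2.10, 2.11, 2.04 and 2.03 on the 48 hpf arrays and 1.49, 1.61, 1.44 and 1.58 on the 96 hpf arrays. The mean was smaller at 96 hpf by 0.54, with no overlap between ages. The distance of miR-430c from miR-430j was 0.38, 0.38, 0.33 and 0.39 at 48 hpf and 1.08, 0.89, 1.07 and 0.98 at 96 hpf. The mean was larger at 96 hpf by 0.64, again with no overlap.

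Of the 6 pairs, 5 did not overlap between ages in vehicle embryos and 0 did so in VPA embryos. The mean changes had the same sign in both. In VPA embryos they were 0.30 (a minus j), 0.14 (b minus j), 0.35 (c minus j), 0.17 (a minus b), -0.05 (a minus c) and -0.22 (b minus c). The VPA arrays mostly spread more, with the largest SD, 0.39, for a minus j at 96 hpf against 0.09 in vehicle. For a minus c at 96 hpf the order was reversed, with 0.09 in VPA and 0.12 in vehicle. The counts therefore do not show that members parted with age in vehicle embryos only. For single miRNAs, 35.4% of all 178 were lower without overlap in vehicle and 33.1% in VPA embryos. This share counts falls only and single miRNAs only, whereas pairs were counted in either direction. Pairs of other miRNAs were not counted, so the 5 of 6 has no background here. The pair that overlapped between ages in vehicle embryos was miR-430a against miR-430b. Its change was 0.20 (exact two-sided permutation p = 0.0571, adjusted p = 0.137). None of the 24 pair tests passed after adjustment over all 24. The smallest p that 4 against 4 arrays allow is 0.0286, which became 0.098 after adjustment, and 2 pairs reached it between VPA and vehicle at 96 hpf. These were miR-430a minus miR-430c, which was 0.33 higher in VPA embryos, and miR-430b minus miR-430c, which was 0.35 higher. Quantile normalization, which is not a single factor per array, gave 0.18 and 0.18 for these, and -0.23 in place of -0.54 for miR-430b minus miR-430c with age in vehicle embryos. It also moved miR-430a minus miR-430c with age in vehicle embryos from -0.34 to -0.05. The distances from miR-430j moved from 0.29 to 0.69 (miR-430a), 0.10 to 0.52 (miR-430b) and 0.64 to 0.75 (miR-430c). For miR-430a minus miR-430b the change was 0.20 and became 0.18. A within-array difference does not cancel the background correction either. With normexp, miR-430j fell by less in vehicle embryos (-2.94) than miR-430a (-3.25) and miR-430b (-3.44). The values above had it fall by more (-3.71, against -3.41 and -3.61). The direction of these distances from miR-430j thus depended on the background correction. miR-430c fell by less than miR-430j with both corrections (-2.63 with normexp).

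**Figure D4:**
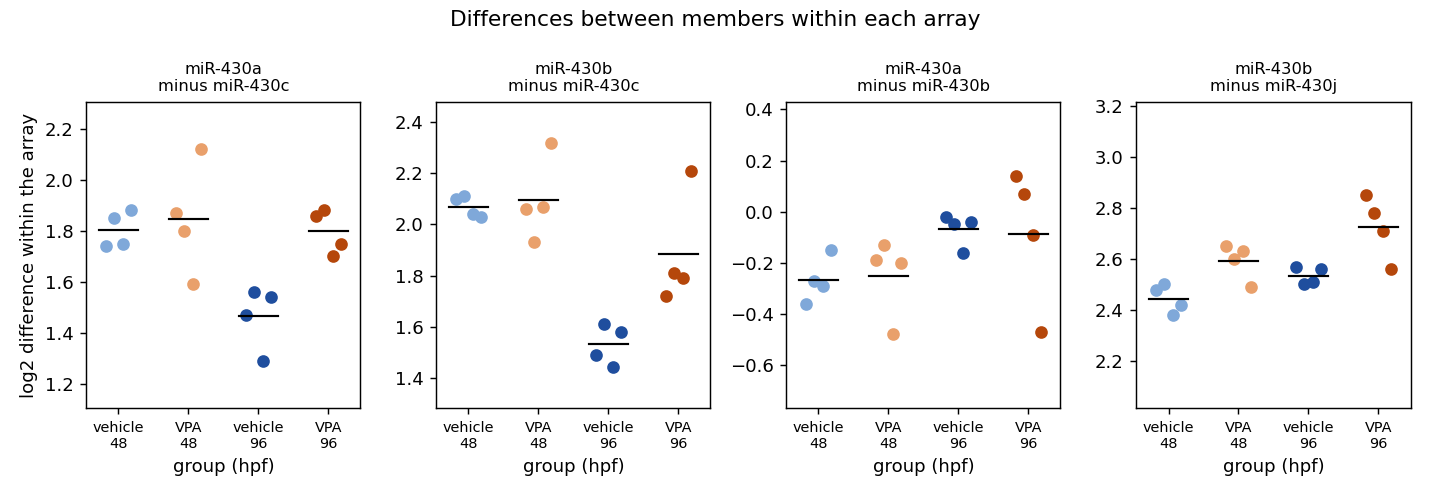
Points are the log2 difference of 2 members within each array and lines the group means, for 4 of the 6 pairs, with each y axis spanning the same number of log2 units. At 96 hpf the distances of miR-430a and miR-430b from miR-430c are larger in every VPA array than in any vehicle array, and replicate 4 stands highest for miR-430b at 2.21.

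At 48 hpf, the comparison of VPA with vehicle embryos gave small differences. miR-430a was 0.17 ± 0.06 higher on the log2 scale (95% interval 0.035 to 0.299, adjusted p = 0.0538), a 1.12-fold difference, with the groups overlapping between 3.20 and 3.22. miR-430b was 0.15 ± 0.10 higher (-0.055 to 0.359, adjusted p = 0.252), with the lowest VPA array at the highest vehicle value of 3.41 to 2 decimals and no overlap before rounding. The values of miR-430c (0.13 ± 0.09, -0.054 to 0.309, adjusted p = 0.273) and miR-430j (0.00 ± 0.13, -0.269 to 0.274, adjusted p = 1) overlapped between groups.

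No member passed at 48 hpf, where 29.2% of all tested miRNAs were called, and 1 of 4 had an unadjusted p under 0.05. Groups of 1 of 4 members did not overlap, against 41.6% of all miRNAs. The members' median was 0.14, and that of all miRNAs 0.00. With normexp the members' median was -0.0925 and that of all miRNAs 0.0879, and without scaling they were -0.30 and -0.31. All 4 members were lower with VPA in both, so the sign depended on the processing. Leaving out VPA at 96 hpf replicate 4, which enters only through the shared spread, let miR-430a (adjusted p = 0.0337) and miR-430b (adjusted p = 0.0394) pass, in a fit that called 83 of all 178 miRNAs. Without the bright VPA arrays, miR-430b (0.17, adjusted p = 0.0367) and miR-430c (0.22, adjusted p = 0.0164) passed, next to 81 of all 178. In both cases 2 of 4 members is near the share of all miRNAs called. With the replicate number as a block within each slide, miR-430a passed (adjusted p = 0.0397), although the numbers did not pair the 48 hpf arrays. That fit called 55 of all 178 miRNAs.

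At 96 hpf, the same comparison gave a log2 difference of -0.22 ± 0.09 for miR-430c (95% interval -0.40 to -0.037, adjusted p = 0.0628). Its 4 VPA arrays, from -2.11 to -1.97, all lay below its 4 vehicle arrays, from -1.94 to -1.68. Quantile normalization gave -0.0085 for miR-430c (adjusted p = 0.947). miR-430a (0.11 ± 0.06, -0.019 to 0.246, adjusted p = 0.18) and miR-430b (0.13 ± 0.10, -0.076 to 0.338, adjusted p = 0.346) had higher means in VPA embryos with overlap between groups. miR-430j differed by -0.06 ± 0.13 (-0.331 to 0.212, adjusted p = 0.755), with 3 VPA arrays below every vehicle array and replicate 4 above them all.

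At 96 hpf 0 of 4 members passed, where 33.1% of all tested miRNAs were called, and 1 of 4 had an unadjusted p under 0.05. The groups of 1 of 4 members did not overlap, against 32% of all miRNAs. With 1 array left out, 0 members passed in 12 of 16 fits and 1 passed in the other 4. Without VPA at 96 hpf replicate 4, miR-430j differed by -0.24 and passed (adjusted p = 0.00841), next to 68 of all 178 miRNAs. miR-430c passed without vehicle at 96 hpf replicate 2 (-0.27, adjusted p = 0.0369), VPA at 48 hpf replicate 3 (adjusted p = 0.0403) or VPA at 48 hpf replicate 4 (adjusted p = 0.0166). These fits called 55, 58 and 61 of all 178 miRNAs in that order. The 48 hpf arrays enter the 96 hpf comparison only through the shared spread, so without them the estimate stayed at -0.22. Without the bright VPA arrays, which leaves 2 VPA arrays at 96 hpf, miR-430c (-0.26, adjusted p = 0.016) and miR-430j (-0.30, adjusted p = 0.00176) passed, next to 73 of all 178.

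The difference between the VPA effects at 96 and at 48 hpf was tested directly. It was -0.35 ± 0.12 for miR-430c (95% interval -0.60 to -0.089, unadjusted p = 0.0117, adjusted p = 0.0785), since the mean was higher with VPA at 48 hpf and lower at 96 hpf. The other members gave -0.05 ± 0.09 (miR-430a, adjusted p = 0.759), -0.02 ± 0.14 (miR-430b, adjusted p = 0.94) and -0.06 ± 0.18 (miR-430j, adjusted p = 0.876). None of the 4 members passed, where 12.4% of all tested miRNAs were called. Quantile normalization gave a difference of -0.055 for miR-430c (adjusted p = 0.805), so its size depended on the scaling. The value of miR-430c passed without VPA at 48 hpf replicate 4 (-0.44, adjusted p = 0.00579), vehicle at 96 hpf replicate 2 (-0.40, adjusted p = 0.0439) or VPA at 96 hpf replicate 4 (-0.36, adjusted p = 0.0494). These fits called 22, 22 and 43 of all 178 miRNAs in that order. Without the bright VPA arrays it was -0.48 (adjusted p = 0.00346), and miR-430j then also passed at -0.29 (adjusted p = 0.0198), in a fit that called 50 of all 178.

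**Figure D5:**
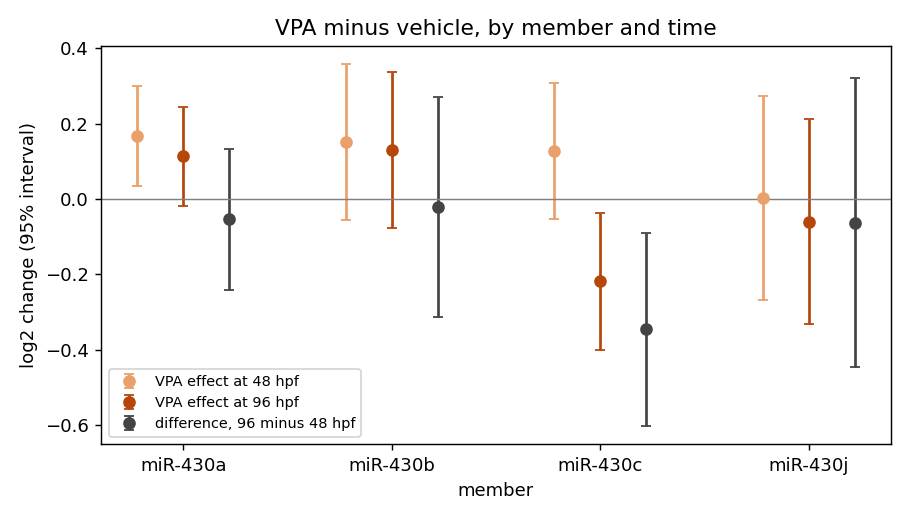
Points are the log2 difference of VPA from vehicle embryos at 48 hpf and at 96 hpf and the difference of these effects, for each tested member, with 95% intervals from the fit of all 16 arrays (n = 4 a group). The miR-430c point lies at 0.13 at 48 hpf and at -0.22 at 96 hpf, and no value passed after adjustment over the 178 miRNAs.

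Each member has 2 probes on the array, and the brighter one gave the values above. The dimmer probes, fitted among 332 probes, also fell with age, by -3.28 for miR-430a, -3.76 for miR-430b, -2.35 for miR-430c and -3.47 for miR-430j in vehicle embryos. In VPA embryos they gave -3.41, -3.68, -2.47 and -3.47 in the same order. The dimmer probe of miR-430c was not well above background on the vehicle arrays at 96 hpf and sat at or near the floor of -3.87, as did that of miR-430j, so these sizes are limited by the floor. For the 96 hpf VPA comparison of miR-430c, the dimmer probe was at the floor in VPA embryos and gave no difference that can be read.

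miR-430i was not above background on any array with either probe. Its intensity ran from -23.0 to 0.433 over both probes and 16 arrays. The miR-430a probe, which differs from it by 1 base, was well above background on all 16 arrays. For miR-430b and miR-430j, also 1 substitution apart, the brighter probe of each was above background on every array, and how much signal they share was not tested. Within an array, the SD of log2 values over the up to 20 spots of a tested member's probe was 0.13 (miR-430a), 0.16 (miR-430b), 0.17 (miR-430c) and 0.18 (miR-430j) at the median over arrays.

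The tested miRNAs nearest to the members' mean profile were named by root mean square distance of centred log2 values over the 16 arrays. The members themselves lay at 0.09 to 0.18 from it. The nearest other miRNAs were miR-30a (1.02), miR-92a (1.15), miR-363 (1.17), miR-20b (1.17) and miR-18c (1.18), each above background on all 16 arrays. In the scaled values all 5 fell with age in both treatments, and none by more than 1.56 on the log2 scale. Without scaling only the 4 tested members were called lower with age in each treatment. None of these 5 was called lower there, so their falls are relative to the scaling. The points share their arrays and scaling, and the distances are a description.

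miR-17, miR-18, miR-20 and miR-93 are known from vertebrates for a seed core close to that of miR-430, and were listed by name because mature sequences were not used here. All 7 such miRNAs on the array were tested. In the scaled values 7 of 7 were called lower with age in vehicle embryos (median -0.91) and 7 of 7 in VPA embryos (median -0.84), next to 34.3% and 36% of all miRNAs. Without scaling only the 4 tested miR-430 members were called lower with age in each treatment. The calls of these 7 miRNAs with age thus did not hold there, and their falls are relative to the scaling. The largest scaled falls among them in vehicle embryos were those of miR-18c (-1.19 ± 0.07, adjusted p = 1.82e-10), miR-20b (-1.14 ± 0.07, adjusted p = 1.43e-09) and miR-18a (-1.06 ± 0.08, adjusted p = 4.09e-09). VPA embryos had more miR-18c at 48 hpf (0.35 ± 0.07, adjusted p = 0.00109) and at 96 hpf (0.34 ± 0.07, adjusted p = 0.000915). miR-20b was higher at 48 hpf (0.24 ± 0.07, adjusted p = 0.0238), and the other 5 did not pass at either time. These are 2 of 7 at 48 hpf and 1 of 7 at 96 hpf, next to 29.2% and 33.1% of all miRNAs. Without scaling no miRNA was called between VPA and vehicle at either time, so these passes did not hold there. With normexp 5 of all 178 miRNAs were called at 48 hpf and none at 96 hpf.

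The let-7 miRNAs, which rise late in the development of many animals and are known from the nematode as timers of larval development, were listed for contrast. Of 10 on the array 8 were tested, and 7 rose with age in vehicle embryos and 8 in VPA embryos, where 46.1% and 41.6% of all miRNAs were called higher. The miRNA called in VPA embryos only was let-7b, at 0.46 against 0.10 in vehicle embryos. It was above background on only 2 of the 4 VPA arrays at 48 hpf. let-7d rose by 1.24 ± 0.10 in vehicle and 1.59 ± 0.10 in VPA embryos (adjusted p = 1.38e-08 and 7.96e-10). let-7e and let-7i were above background at 96 hpf only. They entered the tests through that age alone, so the filter favoured a rise. These 2 therefore add nothing to the counts of miRNAs that rose. None of the 8 passed between VPA and vehicle at 48 hpf, where 29.2% of all miRNAs were called. No VPA effect on let-7e and let-7i can be read at that time. At 96 hpf, where 33.1% were called, 2 of 8 passed, and let-7i (-0.46, adjusted p = 1.64e-05) and let-7e (-0.17, adjusted p = 0.0111) were lower with VPA. With normexp or without scaling no miRNA was called at 96 hpf, so neither call held there. With age let-7i rose by only 0.19 in VPA embryos, from values not above background, so the floor may limit the size of its difference.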

How the data were processed

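Total RNA of 16 samples was hybridized by the authors to 1-colour Agilent miRNA arrays. The deposited scanner files give each spot's intensity, background-subtracted within the array and not scaled between arrays, made with Agilent Feature Extraction (9.5.3.1 per the file headers, 9.5 per the submitters' processing notes). The deposited value table holds the same intensity, with 100% of values within 1%, unscaled. Per the file headers, further deposited columns flag spots as above background, saturated or outlying.

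Control spots were left out. Signal was divided by the array's 75th percentile over the 10360 other spots, outlier spots included. It was given a floor of 0.0682 (the lowest scaled signal above background on each array, as a median). Spots were then averaged as log2 without the outlier spots (3.32% to 8.07% of the 10360 per array). The brightest probe stood for a miRNA, and 178 miRNAs above background on at least 3 arrays of 1 group were tested with limma 3.58.1 (lmFit, eBayes) in R 4.3.3 on all 16 arrays, two-sided, with Benjamini-Hochberg adjustment over the 178 and a threshold of 0.05. Pairs of members were compared with exact permutation tests. Figures used matplotlib 3.10.9. The fit was tested on simulated data.

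Same-numbered arrays of both treatments had residuals correlated at 0.289, 0.282, 0.276 and 0.248 at 96 hpf, above the threshold of 0.1, and at 0.0971, -0.179, 0.324 and -0.151 at 48 hpf. By that threshold the numbers paired the arrays at 96 hpf only. Same-numbered VPA arrays of both ages, on separate slides, gave 0.0803, 0.516, 0.167 and 0.175. The replicate number equals the slide row, and differently numbered arrays were not compared, so a pairing of samples was not shown. The number of arrays limits precision. The members and lists were chosen with earlier results of these data known. Named were all members, the 7 miRNAs of the miR-17, miR-18, miR-20 and miR-93 names and the let-7 list as counts with a few values, and the 5 nearest other miRNAs. Alternatives covered background correction, scaling, floor, filter, probe, samples fitted, variance, replicate block, bright arrays and leaving out each array.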

Additional observations from a re-analysis of the deposited data

Results flagged for a closer look

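Chance sets apart about 1 in 20 groups of 4, and 3 of 20 groups had 1 array lying apart from the rest. miR-430c in VPA embryos at 96 hpf was lowest on replicate 2 at -2.11, while the other 3 arrays lay between -1.98 and -1.97. The 75th percentile of the array signal was highest on VPA at 48 hpf replicate 4, at 2356, with the other 3 arrays of that group between 507 and 730. It was lowest on vehicle at 48 hpf replicate 3, at 897.4, with the others between 1179 and 1220. The part of array brightness in the values of the members was not tested.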

How the results depend on the processing

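The fall with age passed for all 4 members in each of the 120 alternative values in vehicle (-3.95 to -2.14) and the 120 in VPA embryos (-4.00 to -1.82), the smallest sizes being those without scaling. The pair tests gave 0 passes under every alternative run, which says nothing about stability because these tests are too small. With VPA at 48 hpf the count of members that passed went from 0 to 1, miR-430a, with the scanner software's gene signal (0.21, adjusted p = 0.0379), the mean of all probes (0.18, adjusted p = 0.0232), only the groups compared (adjusted p = 0.0362), the replicate block within each slide (adjusted p = 0.0397) and the replicate block over all 4 groups (adjusted p = 0.0293), which was added after seeing the data since the age comparisons could not be fitted with a block within slides. Neither block changed another call of a member. In the order named, the fits that let miR-430a pass called 58, 58, 75, 55 and 57 of all 178 miRNAs at 48 hpf. A pass of 1 of 4 members does not exceed these shares. Without the bright VPA arrays the count became 2 at 48 hpf, 2 at 96 hpf and 2 for the difference of effects. Beside these, 81, 73 and 50 of all 178 miRNAs were called. Leaving out 1 array gave 0 to 2 at 48 hpf, 0 to 1 at 96 hpf, 4 to 4 with age in each treatment, 0 to 1 for the difference and 0 to 0 for pairs. Those fits called 38 to 83 of all 178 miRNAs at 48 hpf, 43 to 68 at 96 hpf and 20 to 43 for the difference. At 48 hpf 1 member passed without vehicle at 48 hpf replicate 4, VPA at 48 hpf replicate 4, or vehicle at 96 hpf replicate 1 or 3. These fits called 45, 49, 52 and 48 of all 178 miRNAs in that order. The 96 hpf arrays enter the 48 hpf comparison only through the shared spread.

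Small VPA values changed sign, and the cause was not tested. With normexp, the 48 hpf values were -0.081 (miR-430a), -0.096 (miR-430b), -0.089 (miR-430c) and -0.15 (miR-430j), and the differences of effects 0.17 (a) and 0.21 (b). With the percentile over probes detected on all arrays they were -0.059 (j, 48 hpf), and 0.0088 (a) and 0.042 (b) for the difference. Quantile normalization gave -0.055 (j, 48 hpf), 0.27 (j, 96 hpf), and 0.015 (a), 0.054 (b) and 0.32 (j) for the difference. Without scaling, 48 hpf values were -0.27, -0.28, -0.31 and -0.43 (a, b, c, j), 96 hpf values 0.012 (c) and 0.17 (j), and differences 0.61, 0.65, 0.32 and 0.60. The mean of probes gave 0.030 (b, difference), and the dimmer probe 0.019 (j, 96 hpf), 0.080 (b, difference) and 0.0021 (j, difference), of which the values of j lie at or near the floor at 96 hpf and cannot be read as a change of sign. Without the bright arrays miR-430j was -0.014 at 48 hpf and miR-430b -0.025 at 96 hpf. Leaving out 1 array, miR-430j ranged from -0.041 to 0.037 at 48 hpf, from -0.24 to 0.027 at 96 hpf and from -0.24 to 0.025 for the difference, where miR-430b ranged from -0.14 to 0.038.

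Over all miRNAs the calls at 48 hpf were 52 (29 higher, 23 lower), but 5 with normexp, 45 (12 and 33) and 33 (11 and 22) with the other percentile and quantile scalings, 0 without scaling, 81 without the bright arrays and 83 without VPA at 96 hpf replicate 4. At 96 hpf they were 59 (26 and 33), 0 with normexp or no scaling, 61 (39 and 22) with quantile scaling, 34 with no floor and 36 with only the groups compared. With age 143 (82 and 61) in vehicle became 86 with normexp, 78 without scaling (74 and 4) and 134 (88 and 46) with the gene signal, and 138 (74 and 64) in VPA embryos became 131 and 4 without scaling. Calls of the difference went from 22 (7 and 15) to 2, 0 and 11 with normexp, no scaling and no floor, to 12 and 5 with quantile scaling and to 50 without the bright arrays and 43 without VPA at 96 hpf replicate 4.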
